A study of Mus musculus with 12 samples.

Results

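The genes of MHC class II antigen presentation were followed across 12 mouse brain RNA-seq libraries. The set held 7 genes of the 56748 in the deposited gene table, chosen by name: the invariant chain gene Cd74, the class II chain genes H2-Aa, H2-Ab1 and H2-Eb1, the peptide-loading genes H2-DMa and H2-DMb1, and the transactivator gene Ciita. The libraries came from adult C57BL/6 mice in 3 arms of 4 libraries, each with 2 females and 2 males. In the LPS+DMA arm the mice received bacterial lipopolysaccharide (LPS) at 0.5 mg/kg intraperitoneally every day for 7 days, and N,N-dimethylacetamide (DMA), a small polar solvent molecule, intraperitoneally every day over the same course at a dose not given in the sources used here. In the LPS arm the mice received LPS without DMA, and in the PBS arm phosphate-buffered saline on the same schedule. The sources used here do not say whether the LPS mice received a vehicle in place of DMA. Brains were taken on day 7, and RNA was extracted from each mouse separately, so the libraries of an arm were separate animals. No library from mice given DMA without LPS was analysed here.

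MHC class II molecules are pairs of an alpha and a beta chain that show peptides from engulfed material to CD4 T cells. The invariant chain fills the peptide groove of newly made pairs and carries them to endosomes, where proteases, cathepsin S among them, cut it down to a short remnant. H2-DM then swaps that remnant for a peptide. CIITA is a coactivator without DNA-binding activity of its own that switches the whole group on, and interferon gamma is its best known inducer. In the healthy brain class II is scarce in the parenchyma and is found mainly on macrophages and dendritic cells of the meninges, perivascular spaces and choroid plexus, while microglia gain it on activation.

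In the deposited GRCm39 coordinates 5 of the 7 genes lay in the class II region of chromosome 17, within 197 kb. They were H2-DMa (ENSMUSG00000037649, chr17:34338515-34358075, plus strand), H2-DMb1 (ENSMUSG00000079547, chr17:34372046-34379204, plus), H2-Ab1 (ENSMUSG00000073421, chr17:34476663-34488393, plus), H2-Aa (ENSMUSG00000036594, chr17:34501718-34506797, minus) and H2-Eb1 (ENSMUSG00000060586, chr17:34524841-34535648, plus). Cd74 lay on another chromosome, given below, as did Ciita (ENSMUSG00000022504, chr16:10297923-10346282, plus). The H2-DMa gene overlapped 3094 bases of Brd2 on the opposite strand, which had 18.9 to 37.2 FPKM (fragment counts scaled by gene length and library depth), and Ciita overlapped 25888 bases of Dexi on the opposite strand, with 7.51 to 13.8 FPKM. Library protocols that keep strand and that lose it both stand in the labels, so reads of these overlapping genes cannot be told apart by strand.

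Promoters of class II genes are known for a shared layout, an X box bound by the RFX complex followed by a Y box bound by NF-Y, on which CIITA docks. The sequences below show that layout in front of 3 of the genes measured here and of H2-Oa, a further class II gene. They are RefSeq promoter windows in GRCm38.p6, read 5′ to 3′ on each gene's own strand and ending upstream of the annotated start. The first capitals mark GNAAC, the letters of the X box core, and the second ATTGG, those of the Y box. H2-Aa is chr17:34287852-34287924 on the minus strand, and the others are on the plus strand: H2-Eb1 at chr17:34305756-34305827, H2-DMb1 at chr17:34153077-34153149 and H2-Oa at chr17:34092283-34092355.
H2-Aa: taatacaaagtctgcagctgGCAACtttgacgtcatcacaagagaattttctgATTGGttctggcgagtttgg
H2-Eb1: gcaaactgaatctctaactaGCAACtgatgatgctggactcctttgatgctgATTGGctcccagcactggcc
H2-DMb1: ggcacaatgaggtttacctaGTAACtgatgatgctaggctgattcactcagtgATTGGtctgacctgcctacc
H2-Oa: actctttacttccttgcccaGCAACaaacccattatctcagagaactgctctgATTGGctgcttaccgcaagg

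From the start of the first motif to the start of the second there were 33 bases in H2-Aa, 32 in H2-Eb1, 33 in H2-DMb1 and 33 in H2-Oa. The search covered the 250 bases before each start, on both strands, and counted GNAAC followed by ATTGG at 30 to 36 bases. This pattern was chosen after the class II windows had been read. It was in the windows of 3 of the 4 genes of the set that had one, H2-DMa being the exception, and of 3 of 4 further class II genes, H2-DMb2 being the exception. Over all 32851 windows, 33.8% held ATTGG, 79.6% held GNAAC and 1.04% held the spaced pair. No sequence is shown for Cd74, H2-Ab1 and Ciita. A match describes letters and not binding.

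The libraries held 27.5 to 41.4 M reads assigned to genes, recovered from the FPKM values, and the median library had 34.4 M reads. General brain markers were present in every library, with a summed level of 866 to 2006 FPKM over 9 genes. The labels call the tissue whole brain, but the libraries differed in the regions they held. Gabra6, a gene of cerebellar granule cells, had 15.6 to 114 FPKM in 3 of 4 LPS libraries, all but female 2, and 74.6 FPKM in PBS female 1, against at most 0.17 FPKM in each of the other 8 libraries. Ttr, the transthyretin gene of choroid plexus epithelium, had 1.91 to 416 FPKM in LPS+DMA brains, 181 to 1765 FPKM in LPS brains and 0.576 to 327 FPKM in PBS brains. LPS female 2 also stood apart in ribosomal RNA genes, which took 0.0499% of its reads, against 3.60% to 10.9% in the other 11 libraries. The highest value of both Gabra6 and Ttr was in the LPS arm, and fits without the 4 libraries with Gabra6, or with Gabra6 or Ttr as a covariate, are given below beside the results in which the LPS arm takes part.

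Cd74 was the most abundant of the 7 genes over all libraries, with a mean of 2.84 ± 1.96 FPKM (SD, n = 12). H2-DMa followed at 2.2 ± 0.58, H2-Eb1 at 1.13 ± 0.85, H2-Ab1 at 0.77 ± 0.65, H2-DMb1 at 0.76 ± 0.33, H2-Aa at 0.62 ± 0.55 and Ciita at 0.042 ± 0.024. Neighbours in this order often changed places: Cd74 was above H2-DMa in 6 of 12 libraries, H2-Ab1 above H2-DMb1 in 5 and H2-DMb1 above H2-Aa in 7, whereas H2-DMa was above H2-Eb1 in 10 and H2-Eb1 above H2-Ab1 in 10. In the LPS+DMA brains the order was different at the top, with H2-DMa above Cd74 in 4 of 4 libraries, against 1 of 4 in LPS brains and 1 of 4 in PBS brains. All levels were low: 6 genes passed the filter of at least 0.5 FPKM in at least 2 libraries and were tested, and Ciita did not.

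LPS+DMA against LPS asks whether the brains given DMA differed in their response to LPS. Cd74 and the 3 class II chain genes fell in LPS+DMA brains, to means 5.56-fold to 7.42-fold below those of LPS brains. H2-DMa and H2-DMb1, which load the peptides, did not pass the test, and neither did Ciita in a test of its own.

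Cd74 (ENSMUSG00000024610, chr18:60936920-60945724, plus strand) had 0.785 and 0.477 FPKM in the LPS+DMA females and 0.273 and 1.76 in the LPS+DMA males, against 6.34 and 3.28 in LPS females, 5.56 and 3.15 in LPS males, 4.25 and 3.50 in PBS females and 1.36 and 3.35 in PBS males. Every LPS+DMA library was below every LPS library, while LPS+DMA male 2 was above PBS male 1. The values rest on 15 to 77 reads per LPS+DMA library, against 172 to 361 per LPS library and 86 to 310 per PBS library. The means were 0.82 ± 0.66, 4.58 ± 1.61 and 3.12 ± 1.23 FPKM in LPS+DMA, LPS and PBS brains (SD, n = 4 each). Against LPS, Cd74 in LPS+DMA brains was lower by a log2 change of -1.63 with a standard error of 0.31 (limma on log2(FPKM + 1), adjusted p = 0.0203). With the pseudocount of 1, such a change understates that of a gene at these levels.

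H2-Eb1, the beta chain of the I-E pair, had 0.633, 0.112, 0.0314 and 0.277 FPKM in the LPS+DMA brains (females 1 and 2, then males 1 and 2), against 2.37, 1.39, 2.71 and 1.13 in LPS brains and 1.48, 1.20, 0.603 and 1.63 in PBS brains. The LPS+DMA and LPS libraries did not overlap. The difference was -1.18 ± 0.23 (log2, SE, adjusted p = 0.0203 by limma), and the mean of LPS+DMA brains was 7.21-fold below that of LPS brains.

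H2-Ab1, the beta chain of the I-A pair, had 0.228, 0.170, 0.214 and 0.210 FPKM in LPS+DMA brains in the same order, against 2.11, 0.774, 1.92 and 0.776 in LPS brains and 1.03, 0.781, 0.394 and 0.653 in PBS brains. It was the only one of the 7 genes whose 4 LPS+DMA libraries lay below all libraries of both other arms. They lay close together, with an SD of 0.025 FPKM around 0.205, against 0.72 around 1.40 in LPS brains and 0.27 around 0.715 in PBS brains. Against LPS the log2 change was -0.94 ± 0.20 (SE, adjusted p = 0.0233 by limma), with means 6.80-fold apart.

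H2-Aa, the alpha chain that pairs with H2-Ab1, had 0.0925, 0.134 and 0.385 FPKM in LPS+DMA female 1, female 2 and male 2. In LPS+DMA male 1 it had 0 reads, which allows up to 0.0241 FPKM at 3 reads. LPS brains had 1.70, 0.523, 1.60 and 0.706 FPKM and PBS brains 0.751, 0.628, 0.210 and 0.736. Again no LPS+DMA library reached the lowest LPS library, and LPS+DMA male 2 was above PBS male 1. The log2 change against LPS was -0.85 ± 0.22 (SE, adjusted p = 0.0346 by limma), with means 7.42-fold apart. In tissue RNA, fewer class II positive cells and less class II RNA per cell cannot be told apart.

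**Figure D1:**
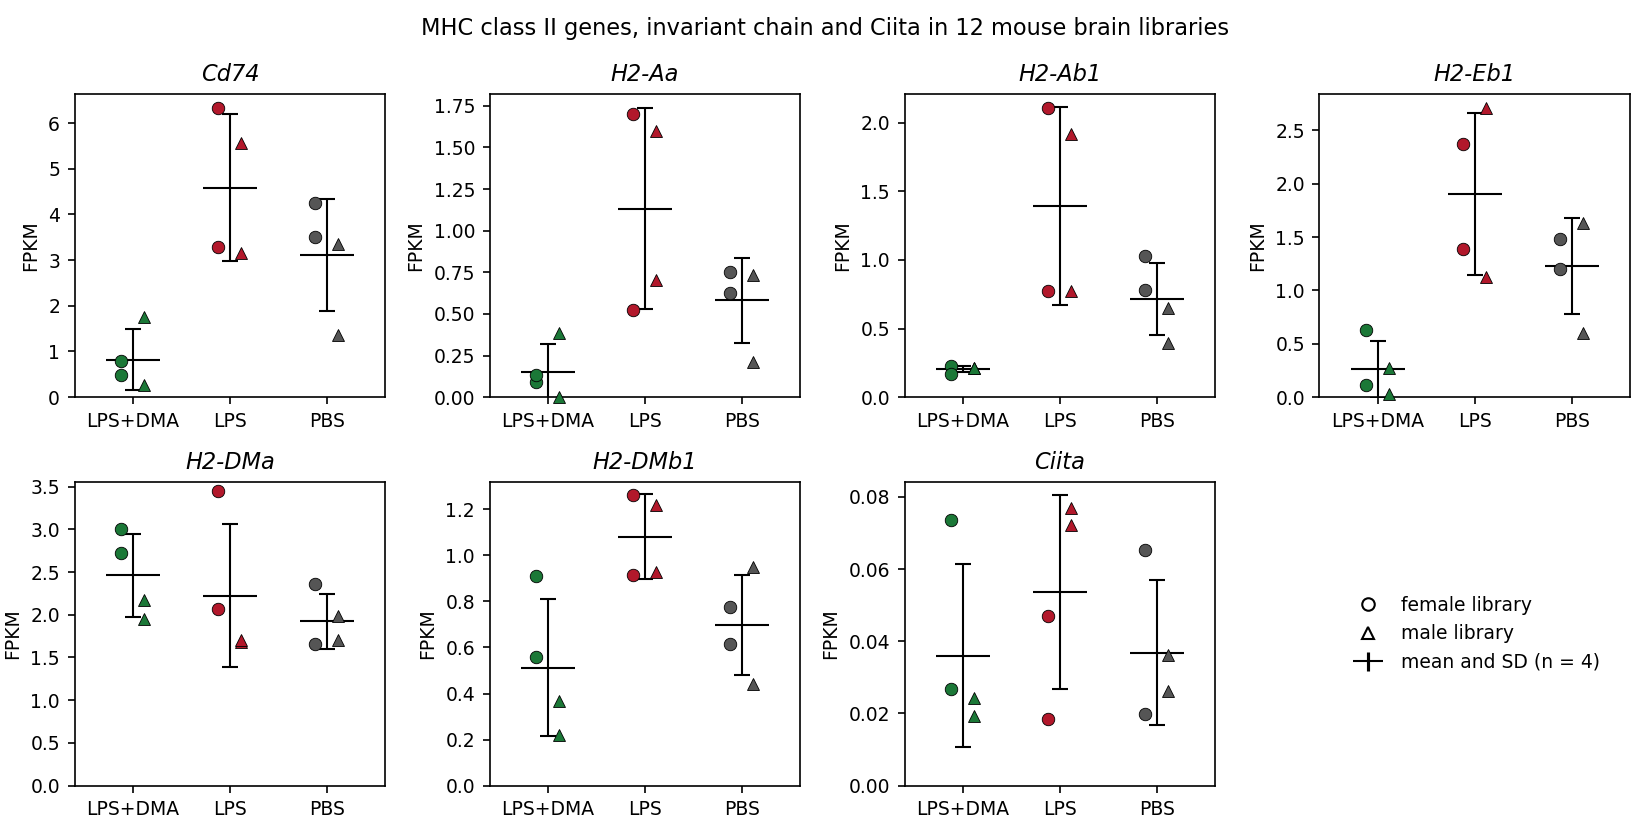
FPKM (vertical axes, from 0) of each of the 7 genes in the 12 libraries, with LPS+DMA left, LPS centre and PBS right; circles are female and triangles male libraries, and bars are the mean and SD of 4 libraries, shown only above 0. The LPS+DMA libraries of Cd74, H2-Aa, H2-Ab1 and H2-Eb1 lie below all 4 LPS libraries. Those of H2-DMb1 do so narrowly (0.909 against 0.916 FPKM at the nearest), while H2-DMa and Ciita overlap between arms.

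Neither subunit of the H2-DM peptide loader passed the test. H2-DMb1 had 0.557, 0.909, 0.218 and 0.366 FPKM in LPS+DMA brains (females 1 and 2, then males 1 and 2), against 1.26, 0.916, 1.22 and 0.927 in LPS brains and 0.616, 0.774, 0.950 and 0.443 in PBS brains. The LPS+DMA and LPS libraries did not overlap, but LPS+DMA female 2, at 0.909 FPKM, was close to LPS female 2, at 0.916. Its log2 change against LPS, -0.48 ± 0.15 (SE), did not pass the test (limma, adjusted p = 0.0707). H2-DMb1 has a near-identical neighbour, H2-DMb2, and reads could be split between the copies, so its level is uncertain.

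H2-DMa, the alpha subunit, had 2.72, 3, 1.95 and 2.17 FPKM in LPS+DMA brains, 2.07, 3.45, 1.68 and 1.70 in LPS brains and 1.66, 2.36, 1.98 and 1.70 in PBS brains. The 3 arms overlapped, with a log2 change of 0.12 ± 0.15 (SE) between LPS+DMA and LPS brains (limma, adjusted p = 0.615). As a ratio of FPKM, H2-DMa over H2-DMb1 was 5.76 ± 2.38 in LPS+DMA brains, against 2.15 ± 1.09 in LPS brains and 2.92 ± 0.73 in PBS brains (SD, n = 4 each). The part of the overlapping gene Brd2 in the H2-DMa level was not tested; across the 12 libraries their log2 levels had a Pearson r of 0.05 and a Spearman's rho of 0.44.

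Ciita, the transactivator, had 6 to 28 reads per library. Its FPKM were 0.0737, 0.0267, 0.0192 and 0.0242 in LPS+DMA brains, 0.0186, 0.0471, 0.0770 and 0.0723 in LPS brains and 0.0652, 0.0199, 0.0363 and 0.0261 in PBS brains. The arms overlapped in all 3 comparisons. The mean difference was -0.0178 FPKM for LPS+DMA against LPS (exact two-sided permutation test over 70 arrangements, p = 0.429), 0.0169 for LPS against PBS (p = 0.343, exact) and -0.000907 for LPS+DMA against PBS (p = 0.886, exact). Adjusted over these 3 comparisons the exact p-values were 0.643, 0.643 and 0.886. No difference in Ciita was detected, and both the few reads and the 70 arrangements limit what the test could find. Reads of Dexi on the other strand could add to the Ciita count. The log2 levels of the 2 genes had a Pearson r of 0.53 and a Spearman's rho of 0.27 over the 12 libraries.

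Over the set, 4 of the 6 tested genes fell in LPS+DMA against LPS brains, where 3.88% of the 19571 tested genes were called lower and 5.79% higher. The 4 LPS+DMA libraries lay below the 4 LPS libraries for 5 of the 6, against 5.98% of tested genes. The median log2 change was -0.90 over the 6 genes and 0.01 over all tested genes. Females and males were alike in direction: the change of Cd74 was -1.79 in females and -1.48 in males, that of H2-Eb1 -1.07 and -1.29, that of H2-Ab1 -0.97 and -0.91, and that of H2-Aa -0.87 and -0.84 (log2, 2 against 2 libraries each). No gene of the set and no gene of the whole table differed between the sexes in this or either other comparison (limma interaction, adjusted p of 0.05); at an unadjusted p of 0.05 the counts were 0 genes of the set in each, and 1008 of the whole table here, 491 for LPS against PBS and 1110 for LPS+DMA against PBS.

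These 4 calls depended on which LPS libraries were in the fit. Leaving out LPS female 1, LPS male 1 or LPS male 2 ended all 4, with 11, 7 and 22 genes called over the whole table in place of 1892, while leaving out LPS female 2 gave 5, H2-DMb1 among them. Leaving out LPS+DMA female 1, female 2 or male 1, or PBS male 2, ended the call of H2-Aa alone (limma, adjusted p = 0.0698, 0.0663, 0.0657 and 0.0514). With the LPS+DMA and LPS libraries fitted without the PBS arm, or with no filter on low values, none of the 4 was called, and Cd74 had adjusted p-values of 0.0724 and 0.052 (limma). Without the 4 libraries with Gabra6, which left LPS female 2 as the only LPS library, the log2 changes were -1.26 for Cd74, -0.85 for H2-Eb1, -0.52 for H2-Ab1 and -0.40 for H2-Aa. In that fit the lone library is assumed to vary like the others. With Gabra6 as a covariate Cd74 had -1.33 (limma, adjusted p = 0.225) and with Ttr as a covariate -1.46 (limma, adjusted p = 0.981). The sign of these 4 genes stayed negative in all settings tried.

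**Figure D2:**
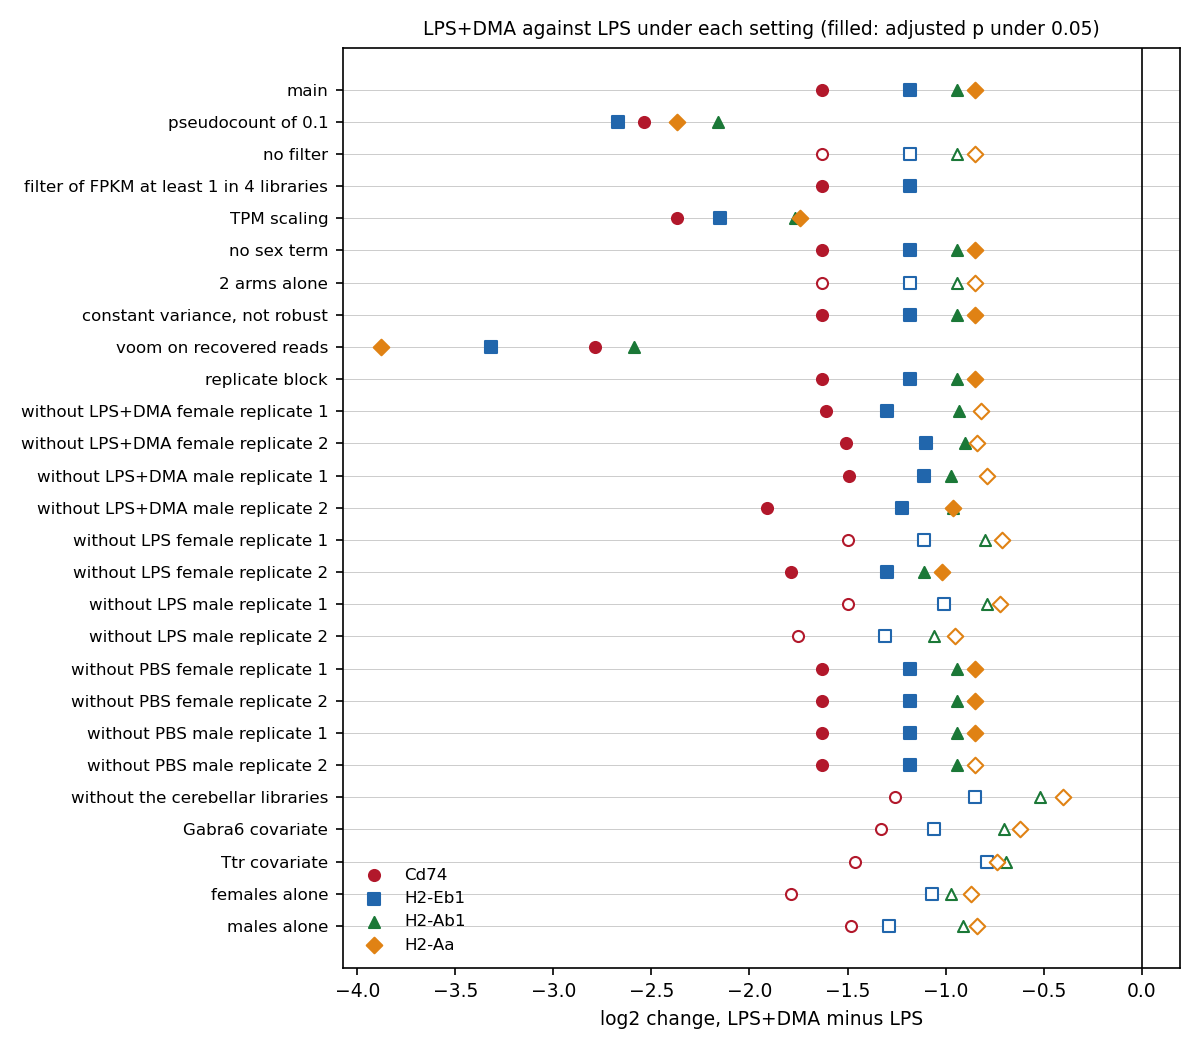
Log2 change of Cd74, H2-Eb1, H2-Ab1 and H2-Aa in LPS+DMA minus LPS brains (horizontal axis) under each way of fitting (rows); filled symbols passed an adjusted p of 0.05. All values lie left of 0, between -3.88 and -0.40, and all symbols are open in the rows without LPS female 1, LPS male 1 or LPS male 2 and in those that take up Gabra6 or Ttr; the rows for a pseudocount of 0.1, TPM and voom are on other log scales.

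LPS against PBS asks what 7 days of LPS did to these genes. All 6 tested genes had positive log2 changes, and none passed the test. The values were 0.45 ± 0.31 for Cd74 (SE, adjusted p = 0.624), 0.45 ± 0.20 for H2-Ab1 (adjusted p = 0.447), 0.40 ± 0.22 for H2-Aa (adjusted p = 0.526), 0.37 ± 0.23 for H2-Eb1 (adjusted p = 0.582), 0.30 ± 0.15 for H2-DMb1 (adjusted p = 0.507) and 0.11 ± 0.15 for H2-DMa (adjusted p = 0.819), all by limma. Among all tested genes 0.0102% of genes were called, and 1 gene of the set, H2-Ab1, was at an unadjusted p under 0.05. Without LPS female 2 the fit called 672 genes of the whole table in place of 2, and none of the set. For each of the 6 the LPS and PBS libraries overlapped, where 3.59% of all tested genes had every LPS library above every PBS library. Without the 4 libraries with Gabra6 the log2 changes were 0.21 for Cd74, 0.09 for H2-Ab1, 0.00 for H2-Aa, 0.06 for H2-Eb1, -0.02 for H2-DMb1 and 0.37 for H2-DMa. With Ttr as a covariate they were 0.26, 0.17, 0.28, -0.06, 0.26 and 0.37 in the same order, and with Gabra6 as a covariate 0.26, 0.29, 0.25, 0.29, 0.30 and 0.30.

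The 4 LPS libraries were uneven in class II expression. LPS female 1 and male 1 had 6.34 and 5.56 FPKM of Cd74, 2.11 and 1.92 of H2-Ab1 and 1.70 and 1.60 of H2-Aa. LPS female 2 and male 2 had 3.28 and 3.15 FPKM of Cd74, 0.774 and 0.776 of H2-Ab1 and 0.523 and 0.706 of H2-Aa. For these 3 genes LPS female 2 and male 2 lay within the range of the PBS libraries, and LPS female 1 and male 1 lay above it. In the order female 1, male 1, female 2 and male 2, Gabra6 had 114, 15.6, 0 and 90.5 FPKM and Ttr 1765, 1139, 1244 and 181 FPKM. Red blood cell genes summed to 607, 946, 243 and 290 FPKM, the same split as the class II genes. Border macrophage markers (7.57, 8.87, 6.98 and 6.58), B cell markers (14.8, 18.4, 11 and 14.1) and, narrowly, T cell markers (2.73, 2.66, 1.14 and 2.62) had this split too. Microglial (125, 126, 174 and 130) and dendritic cell markers (9.52, 7.23, 4.06 and 7.89) did not. The part of blood, of these cell types or of tissue makeup in this split was not tested.

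LPS+DMA against PBS asks how far the brains given both agents were from those given neither. Of the 6 tested genes 5 had negative and 1 a positive log2 change, and none passed the test, where 0.0102% of all tested genes did. Cd74 had -1.18 ± 0.31 (SE, adjusted p = 0.324), H2-Eb1 -0.82 ± 0.23 (adjusted p = 0.324), H2-Ab1 -0.50 ± 0.20 (adjusted p = 0.405), H2-Aa -0.45 ± 0.22 (adjusted p = 0.450), H2-DMb1 -0.18 ± 0.15 (adjusted p = 0.666) and H2-DMa 0.24 ± 0.15 (adjusted p = 0.549), all by limma. At an unadjusted p of 0.05 there were 3 genes of the set and 2235 of the whole table. The arms did not overlap for 1 of the 6, H2-Ab1, against 2.93% of tested genes with every LPS+DMA library below every PBS library. The 3 comparisons share libraries, so their values are not independent of one another.

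**Figure D3:**
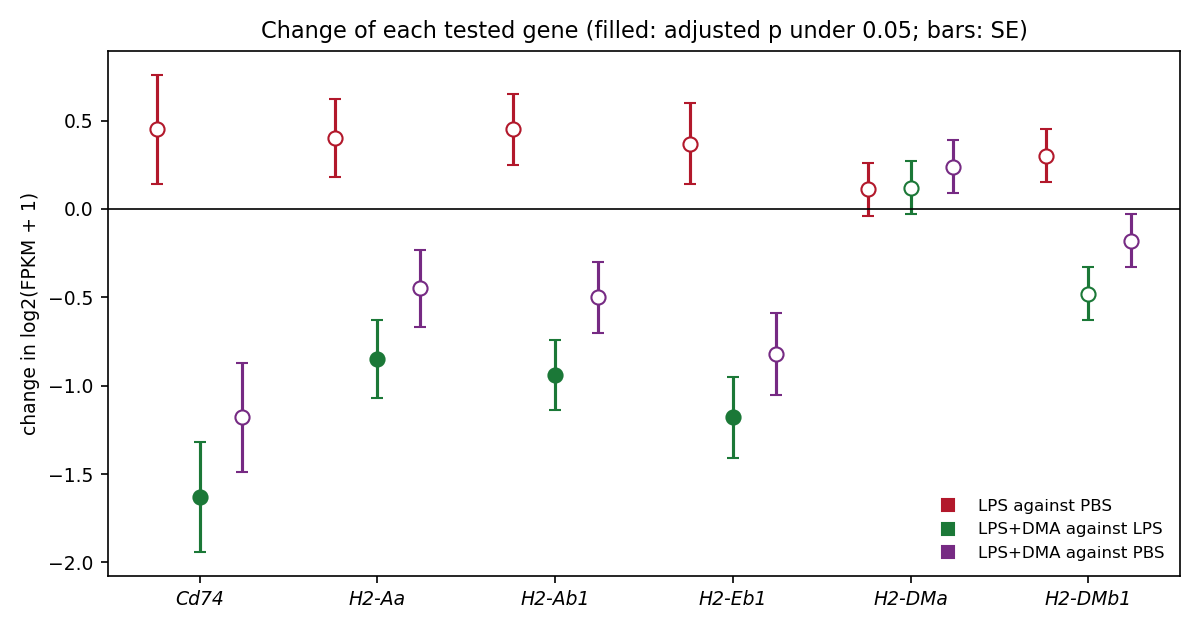
Change in log2(FPKM + 1) (vertical axis) of the 6 tested genes in the 3 comparisons, each tested arm minus the other; bars are standard errors and filled points passed an adjusted p of 0.05. The filled points are Cd74, H2-Aa, H2-Ab1 and H2-Eb1 in LPS+DMA against LPS, between -1.63 and -0.85.

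Cd74 and the class II chains varied together from library to library. Across the 12 libraries, Pearson's r with Cd74 on the log2 scale was 0.95 for H2-Aa, 0.94 for H2-Eb1 and 0.91 for H2-Ab1 (Spearman's rho 0.96, 0.93 and 0.92), against 0.56 for H2-DMb1 and -0.36 for H2-DMa. After each arm's mean was taken off, r with Cd74 was 0.90 for H2-Aa, 0.78 for H2-Eb1 and 0.73 for H2-Ab1, and -0.08 for H2-DMb1 and -0.23 for H2-DMa. These are descriptions of libraries that share arm, depth and tissue makeup. The summed FPKM of H2-Aa, H2-Ab1 and H2-Eb1 over that of Cd74 was 0.87 ± 0.30 in LPS+DMA brains, 0.94 ± 0.14 in LPS brains and 0.83 ± 0.08 in PBS brains (SD, n = 4 each), and the 3 arms overlapped.

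**Figure D4:**
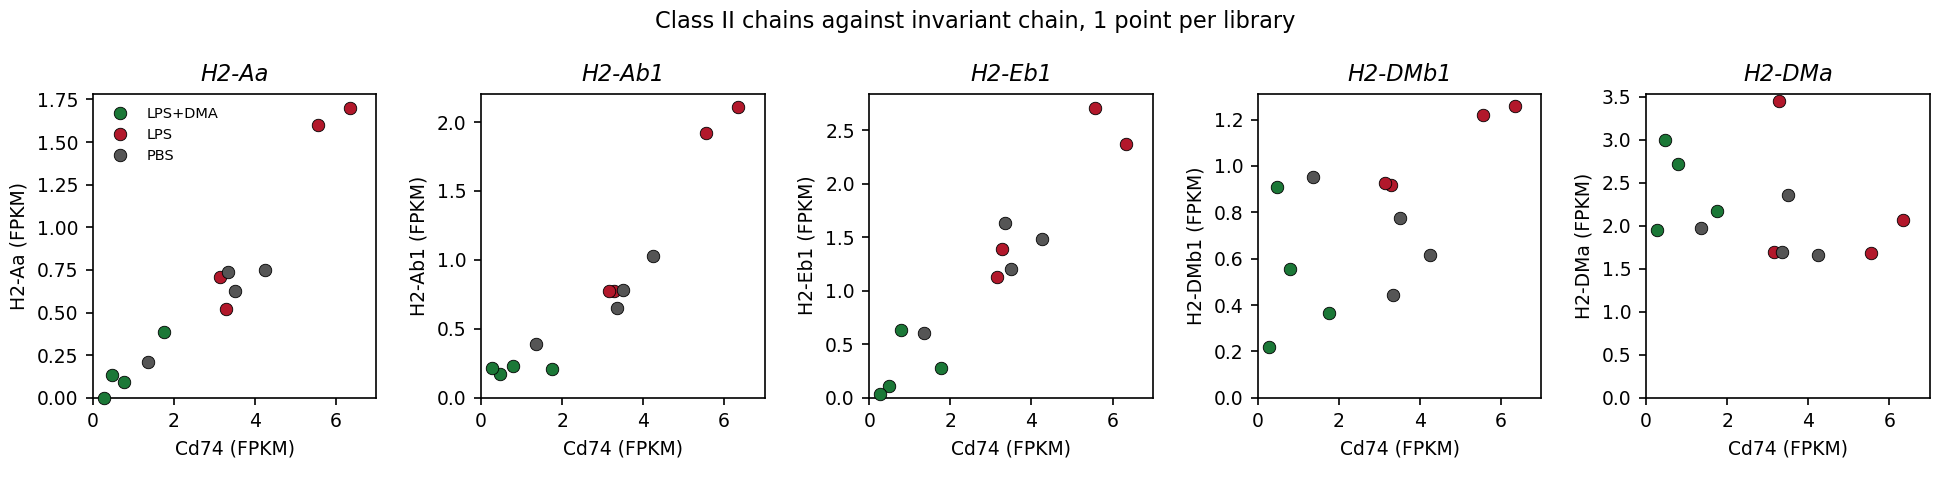
FPKM of H2-Aa, H2-Ab1, H2-Eb1, H2-DMb1 and H2-DMa (vertical axes) against FPKM of Cd74 (horizontal axes), 1 point per library, coloured by arm. The first 3 genes are higher where Cd74 is higher (r of 0.95, 0.91 and 0.94 on the log2 scale), and H2-DMa is not (r of -0.36).

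The remaining class II genes were near the limit of detection and none passed the filter. H2-Oa, the alpha chain of the H2-O protein that inhibits H2-DM, had 2, 2, 0 and 0 reads in LPS+DMA brains (females, then males), against 20, 12, 4 and 22 reads in LPS brains and 6, 10, 10 and 6 in PBS brains. At 0 to 0.0517 FPKM the LPS+DMA values were the lowest, but 3 reads in LPS+DMA male 2 would be 0.0819 FPKM, above LPS male 1 at 0.0746, so the arms were not separated at this depth. H2-Ob, the beta chain of that protein, had 0.0113 to 0.0871 FPKM in LPS+DMA brains, 0.095 to 0.153 in LPS brains and 0.0693 to 0.218 in PBS brains. H2-Eb2 had at most 0.186 FPKM and H2-DMb2 at most 0.5 FPKM in any library. H2-Ea had 0 reads in all 12, which allows up to 0.1 to 0.168 FPKM at 3 reads; mice of the C57BL/6 strain are known to carry a deletion that silences this alpha chain, the partner of the H2-Eb1 chain.

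Among 9 genes that process antigen and the invariant chain, 5 fell in LPS+DMA against LPS brains and none rose, where 3.88% of all tested genes fell. Ctss, which encodes cathepsin S, the protease that trims the invariant chain, averaged 29.0 ± 10.5 FPKM in LPS+DMA brains, 87.6 ± 2.8 in LPS brains and 44.0 ± 7.5 in PBS brains (SD, n = 4 each), a log2 change of -1.62 against LPS (limma, adjusted p = 0.0135). Ctsh averaged 2.15 ± 0.39, 4.63 ± 0.33 and 2.43 ± 0.53 FPKM in LPS+DMA, LPS and PBS brains, a change of -0.84 against LPS (limma, adjusted p = 0.0186). Lgmn, an asparagine-specific endopeptidase, and the cathepsins Ctsd and Ctsz had log2 changes of -0.54, -0.49 and -0.41. Ifi30, a thiol reductase that unfolds antigens, had -0.47 and did not pass (limma, adjusted p = 0.447). The median over the 9 was -0.47. Cd74 over Ctss, as a ratio of FPKM, was 0.036 ± 0.038 in LPS+DMA, 0.053 ± 0.019 in LPS and 0.075 ± 0.036 in PBS brains (SD, n = 4 each), and its range in LPS+DMA brains, 0.00623 to 0.0912, enclosed that of LPS brains, 0.0359 to 0.0725.

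Of 13 tested genes of factors that act at class II promoters or on Ciita, which included the RFX and NF-Y subunits, 1 rose and 1 fell in LPS+DMA against LPS brains, with a median log2 change of -0.12. Nfyb, a subunit of NF-Y, the factor known for binding the Y box, averaged 9.86 ± 1.41 FPKM in LPS+DMA brains, against 5.99 ± 1.77 in LPS and 8.03 ± 0.90 in PBS brains (log2 change against LPS 0.66, limma, adjusted p = 0.0278). The RFX subunit genes Rfx5, Rfxap and Rfxank had -0.11, -0.03 and -0.20, and none passed.

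In a list of interferon gamma signalling genes, 4 of 11 tested fell in LPS+DMA against LPS brains and none rose, with a median of -0.30. Among them were the interferon-induced GTPase genes Gbp3 (log2 change -1.02, limma, adjusted p = 0.0203), Gbp2 (-0.69, limma, adjusted p = 0.0395) and Igtp (-0.62), whose adjusted p rounds to the threshold of 0.05. Ifng itself had 0 reads in every library. Of 4 tested genes of class II turnover, 1 fell: Marchf8, a ubiquitin ligase family member, with -0.46 (limma, adjusted p = 0.0277). Of 8 tested partners of class II and the invariant chain none passed; Cd86, a costimulatory ligand, had -0.47 (limma, adjusted p = 0.0546). In LPS against PBS and in LPS+DMA against PBS no gene of these 5 lists passed the test; without LPS female 2, 3 processing genes and 1 interferon gamma gene rose in LPS against PBS.

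The list calls in LPS+DMA against LPS shared the dependence of the class II calls. With Gabra6 or Ttr as a covariate, 0 genes were called in each of the lists of antigen and invariant chain processing, class II promoter factors, interferon gamma signalling and class II turnover (limma). These fits called only 5 and 0 of 19571 genes over the whole table, so a count of 0 is not particular to the lists. In them 5 and 4 processing genes were at an unadjusted p under 0.05. Median log2 changes were taken without the 4 libraries with Gabra6, with Gabra6 as a covariate and with Ttr as a covariate. They were -0.47, -0.41 and -0.49 for the antigen and invariant chain processing list, and -0.18, -0.23 and -0.15 for the interferon gamma signalling list. Leaving out LPS female 1 or LPS male 1 also ended all calls in these 4 lists, and leaving out LPS male 2 all but 1 processing gene.

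Markers of cells that can carry class II were read beside these results. Of 10 microglial markers, 3 fell in LPS+DMA against LPS brains, Siglech (-0.86) and Csf1r (-0.61) among them, and the summed level of the list was 52.2 to 106 FPKM in LPS+DMA brains, 125 to 174 in LPS brains and 90.8 to 118 in PBS brains. Cd74 over Csf1r, as a ratio of FPKM, was 0.082 ± 0.060 in LPS+DMA brains, against 0.311 ± 0.137 in LPS and 0.317 ± 0.151 in PBS brains (SD, n = 4 each); the ranges were 0.0368 to 0.165, 0.181 to 0.476 and 0.12 to 0.485. The highest LPS+DMA ratio, 0.165, was just below the lowest LPS ratio, 0.181, while Cd74 over Ctss, given above, overlapped between these arms. The part of microglia in the Cd74 values was not tested.

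Of 10 border macrophage markers 7 were tested and none was called, with sums of 3.39 to 8.65 FPKM in LPS+DMA, 6.58 to 8.87 in LPS and 3.92 to 5.25 in PBS brains. Of 10 dendritic cell markers 3 were tested and none was called. The sums of the 10 were 2.09 to 4.02, 4.06 to 9.52 and 3.89 to 7.94 FPKM in LPS+DMA, LPS and PBS brains. Xcr1, 1 of the 10, had no read in the LPS+DMA and LPS arms. Flt3, a receptor of dendritic cells and their precursors, averaged 1.25 ± 0.82 FPKM in LPS+DMA, 3.44 ± 1.27 in LPS and 2.33 ± 1.09 in PBS brains. Its Pearson r with Cd74 over the 12 libraries was 0.79, against 0.62 for Ctss, 0.53 for Csf1r and 0.50 for Ttr. Flt3 and Zbtb46 averaged 3.44 and 2.71 FPKM of the mean dendritic cell sum of 7.18 in LPS brains. That sum was high in the libraries with Gabra6: 9.52, 7.23 and 7.89 in LPS female 1, male 1 and male 2, and 7.94 in PBS female 1. It was 4.06 in LPS female 2 and 3.89 to 4.48 in the other PBS libraries. The part of tissue region in the Flt3 values was not tested. B cell markers summed to 3.38 to 16.6, 11 to 18.4 and 7.92 to 12.5 FPKM in LPS+DMA, LPS and PBS brains, with Blk and Fcrla at 0 reads in LPS+DMA, and T cell markers to 0.566 to 1.35, 1.14 to 2.73 and 0.852 to 2.40 FPKM, with Cd2, Cd3d and Cd3g at 0 reads in LPS+DMA. Monocyte markers summed to 15.6 to 29.3, 10.3 to 20.4 and 15.8 to 26.9 FPKM in LPS+DMA, LPS and PBS brains, and of 4 tested 1 rose and 1 fell in LPS+DMA against LPS brains, with a median log2 change of 0.12. Red blood cell genes, a measure of blood in the tissue, summed to 29.1 to 296, 243 to 946 and 71.1 to 116 FPKM in LPS+DMA, LPS and PBS brains. The part of blood or of any of these cell types in the class II values was not tested.

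Of 10 choroid plexus epithelium markers 6 fell in LPS+DMA against LPS brains, with sums of 5.39 to 432, 190 to 1818 and 6.69 to 343 FPKM in LPS+DMA, LPS and PBS brains. Of 10 cerebellar markers none was called, with sums of 16.5 to 23.3, 25.4 to 770 and 23.2 to 519 FPKM, and of 10 forebrain markers 8 rose, with sums of 723 to 1197, 25.6 to 861 and 485 to 784 FPKM. In the libraries with Ttr between 181 and 416 FPKM, LPS+DMA female 1 had 416 FPKM of Ttr and 0.785 of Cd74. LPS male 2 had 181 of Ttr and 3.15 of Cd74, and PBS female 1 had 327 of Ttr and 4.25 of Cd74. These libraries were not alike in region. In the same order Gabra6 had 0, 90.5 and 74.6 FPKM, and the forebrain markers summed to 1197, 33.9 and 485 FPKM. The PBS libraries without Gabra6 reads, female 2, male 1 and male 2, had 5.19, 4.89 and 0.576 FPKM of Ttr and 3.50, 1.36 and 3.35 FPKM of Cd74, of which 1.36 was below LPS+DMA male 2 at 1.76. With Ttr or with Gabra6 as a covariate, 0 choroid plexus, 0 forebrain and 0 microglia markers were called (limma). Over the whole table these 2 fits called 0 and 5 of 19571 genes. At an unadjusted p under 0.05 there were 0, 1 and 3 markers with Ttr. Ttr is itself 1 of the 10 choroid plexus markers, so the choroid plexus counts of that fit were largely set by the covariate. Dissection or tissue makeup and treatment cannot be told apart here.

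**Figure D5:**
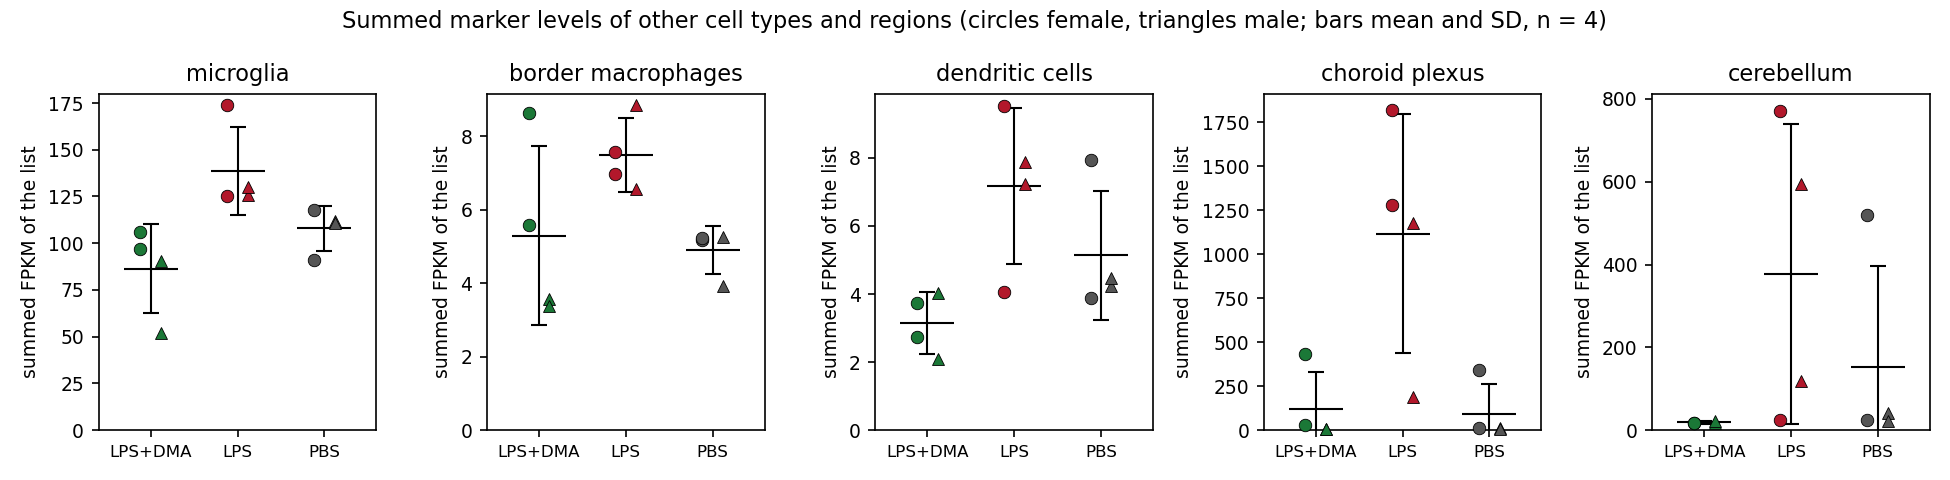
Summed FPKM (vertical axes, from 0) of 5 marker lists in the 12 libraries, with LPS+DMA left, LPS centre and PBS right; circles are female and triangles male libraries, and bars are the mean and SD of 4 libraries, shown only above 0. The microglial sums of the LPS+DMA libraries (52.2 to 106) lie below those of the LPS libraries (125 to 174), and the choroid plexus and cerebellar sums are spread most in the LPS arm.

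The protein-coding genes outside the set with the pattern most like it, by Pearson's r over 12 libraries with the mean standardized level of the 6 tested genes, were Bace2 (0.936), Slfn8 (0.934), Ccl9 (0.919), Tcn2 (0.918) and Gusb (0.917). Tcn2, a vitamin B12 carrier gene, averaged 5.98 ± 1.57 FPKM in LPS+DMA, 11.3 ± 1.5 in LPS and 7.61 ± 1.09 in PBS brains (SD, n = 4 each). Gusb, a lysosomal glucuronidase gene, averaged 2.37 ± 0.29, 3.88 ± 0.30 and 3.18 ± 0.20 FPKM in LPS+DMA, LPS and PBS brains. Ccl9, a chemokine gene, averaged 0.18 ± 0.15, 0.80 ± 0.28 and 0.44 ± 0.09 FPKM in the same arms. All 5 had their highest mean in LPS and their lowest in LPS+DMA brains, an order that largely follows from picking them by likeness to the set.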

How the data were processed

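RNA from 12 mouse brains was sequenced, and the authors deposited 1 table of FPKM per gene. Per the submitters' processing notes the tools included fastp, HISAT2 2.2.1, featureCounts 2.0.6, DESeq2 1.42.0 and edgeR 4.0.16 and the build was GRCm39; the deposited table also gives gene coordinates and other annotation such as gene length. There were 0 per-sample columns beyond the 12 libraries.

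FPKM times gene length gave whole reads (within 0.1 read) for 100% of values up to 1000 reads. Of counts from 1 to 100, 65.5% to 69.8% per library were even, so independent fragments may be fewer than reads; ranges and floors of 3 reads cover counting error only. No 2 libraries were duplicates within sampling noise. Genes with at least 0.5 FPKM in at least 2 libraries (19571) were tested as log2(FPKM + 1) with limma 3.58.1 in R 4.3.3: all 12 libraries, arm and sex as terms, variances moderated with a mean trend and robust to outlying genes, and Benjamini-Hochberg adjustment over all genes tested, with a call at 0.05. Sex differences were interaction contrasts. Ciita, under the filter, had an exact permutation test. Figures and permutation tests used Python 3.11.15. The fit was tested on simulated data. Alternatives covered pseudocount, filter, scaling, voom on recovered reads, covariates, replicate block and leaving out libraries; counts of the other lists under these were added after seeing the data.

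The 7 genes and the other gene lists were chosen with earlier results of these data known. All 7 are described; other lists gave the 3 smallest p-values and genes past the threshold; the RFX subunits, Ifi30 and the ratios were chosen after their values were seen. Samples were grouped by their treatment and sex labels. Values of 2 further list genes past the threshold are not reported here.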

Additional observations from a re-analysis of the deposited data

Results flagged for a closer look

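Ciita in LPS+DMA female 1 stood apart from the other libraries of its arm, at 0.0737 FPKM, while the other 3 had 0.0192 to 0.0267 FPKM. Its gap to the nearest library took up 0.862 of the arm's range, above Dixon's critical value for 4 values. Of 21 groups of 4 checked this was the only one, and chance gives about 1 in 20. The value rests on few reads, since Ciita had 6 to 28 reads per library.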

How the results depend on the processing

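For LPS+DMA against LPS, 4 genes of the set were called. The count was 0 with no filter on low values, with the 2 arms fitted alone, with Gabra6 or Ttr as a covariate, in females alone and in males alone. It was 2 with a filter of at least 1 FPKM in 4 libraries, where 3 of the genes were tested. Over the whole table these fits called 83, 5, 5, 0, 0, 1009 and 2063 genes in that order, against 1892 in the main fit. The fit without the cerebellar libraries left LPS female 2 as the only LPS library, and its log2 changes are given above. Leaving out 1 library at a time gave 0 to 5 genes of the set, and 7 to 3480 over the whole table. The cause was not tested. The fit of the 2 arms alone uses fewer libraries. Females or males alone compare 2 against 2 libraries, with the spread estimated from all 12. The log2 changes ranged from -2.79 to -1.26 for Cd74, -3.88 to -0.40 for H2-Aa, -2.59 to -0.52 for H2-Ab1 and -3.32 to -0.79 for H2-Eb1, with adjusted p-values of 0.00502 to 1, 0.0079 to 1, 0.00356 to 1 and 0.00527 to 1. H2-DMb1 passed with TPM scaling (-0.96, adjusted p = 0.0411) and without LPS female 2 (-0.55, adjusted p = 0.0432). In the other comparisons no gene of the set was called under any alternative.

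Signs that turned were all of uncalled values. H2-DMa in LPS+DMA against LPS was -0.23 without the cerebellar libraries, -0.16 with Gabra6 and -0.11 with Ttr as a covariate. In LPS against PBS, H2-Eb1 was -0.06 with Ttr as a covariate, H2-DMb1 -0.02 without the cerebellar libraries, and H2-DMa -0.08 in males alone and -0.02 to 0.18 with 1 library left out at a time, negative without LPS female 2. H2-DMb1 in LPS+DMA against PBS was 0.03 in females alone. The Ciita difference between LPS+DMA and PBS changed sign in 4 of the fits without 1 library, which ranged from -0.0135 to 0.00853 FPKM.

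Replicate numbers did not pair the libraries: the deviations of same-numbered libraries of 2 arms had r of -0.07 to 0.45. The fit with the replicate block called 4 genes of the set in LPS+DMA against LPS and 2040 in the whole table. Run with voom on the recovered reads, limma called 2088 genes, 4 of the set among them. Depth limits Ciita, H2-Ea, H2-Oa and the other class II genes near 0 reads.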
